A study of Mus musculus with 12 samples.

Results

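The 10 genes described here, Chil3, Lyz2, Mmp12, Gpnmb, Trem2, Spp1, Cd68, Lpl, Marco and Ctsk, mark or are made by lung macrophages, and each was found by the Ensembl identifier that carries its symbol in GENCODE M21. They are 10 of the 52636 genes in the count files, and all 10 passed the filter on low counts that left 21440 genes for testing. RNA came from lung lymphatic endothelial cells (LECs) of Prox1-EGFP mice, a reporter in which regulatory sequence of the lymphatic transcription factor Prox1 drives GFP. The sort kept live cells positive for GFP and the endothelial antigen CD31, and removed cells that stained for EpCAM or a hematopoietic lineage cocktail. Mice breathed whole-body cigarette smoke (CS) or room air (RA) from 6 weeks of age, for 8 weeks (acute) or for 24 weeks or more (chronic). The labels call the ages 8wk and Aged. All mice, controls included, carried the reporter and were injected with labelled isolectin before death. The strain on which the reporter was kept is not given in the labels. There were 2 acute RA libraries (F and M, for female and male), 2 acute CS libraries (F and M), 3 chronic RA libraries (F, M1 and M2) and 5 chronic CS libraries (F and M1 to M4). Each acute library pooled the cells of 2 to 5 mice, and chronic libraries were not pooled.

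Lung macrophages clear inhaled particles and surfactant lipid from the alveoli and the interstitium. They do so with scavenger receptors such as Marco, a lysosomal compartment rich in Cd68, and enzymes that digest lipid, bacterial wall and matrix. Macrophages that carry much lipid are known for expression of Trem2, Gpnmb, Spp1, Lpl and cathepsins. In mice that breathe smoke, macrophages gather in the airspace and make Mmp12, an elastase. LECs express lysosomal and lipid genes of their own, but are not known as a source of most of these 10 transcripts.

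Levels are given in CPM, the authors' read counts per gene scaled to the same library size with edgeR's TMM factors (TMM-normalised CPM). The shallowest library, chronic CS F, had 18821438 counts and the deepest, acute RA F, 56998590, and the chronic CS libraries F, M1 and M2 were the 3 shallowest. A floor of 3 counts stood at 0.0507 to 0.158 CPM. Of 8 lymphatic markers, Prox1, Flt4, Lyve1, Pdpn, Reln, Mmrn1 and Stab2 lay at or above 82.1 CPM in every library. Ccl21a was at or below 1.06 CPM. The summed CPM of the 8 markers was 14170.2 to 15907 in acute RA, 6142 and 9322 in acute CS, 18966 to 21605 in chronic RA and 14075 to 20298 in chronic CS. Acute CS F stood apart from acute CS M in genes of other cells: its summed CPM was 7007 for 12 alveolar epithelial genes and 1248 for 10 neutrophil genes, against 290.0 and 28.05 in acute CS M. In bulk RNA of sorted cells, fewer cells of a type and less RNA per cell cannot be told apart.

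All 10 genes were higher in both acute CS libraries than in both acute RA libraries, and 4 of them, Cd68, Ctsk, Lpl and Gpnmb, rose past an adjusted p of 0.05. The fit was edgeR's quasi-likelihood test over all 12 libraries with Benjamini-Hochberg adjustment over all genes tested, and 2.75% of all genes tested rose by the same limit. The median log2 fold change of the 10 genes was 4.02, beside 0.04 over all genes tested. Both acute CS libraries lay above both acute RA libraries for 10 of the 10 genes and for 27.4% of all genes tested. An exact two-sided permutation test of 2 libraries against 2 cannot go below p = 0.333, which is the value it gave for each of the 10. Summed over the 10 genes, the share of all counts was 0.642% for the F and 0.394% for the M library of acute CS, against 0.0511% in acute RA F and 0.0413% in acute RA M. Lyz2 took the largest part of that sum in every library. Without acute CS F, 1 of the 10 genes, Ctsk, kept an adjusted p under 0.05, and without acute RA F or without acute RA M none of them did. DESeq2, run as an alternative, placed 8 of the 10 past its adjusted limit, all but Trem2 and Spp1, as it did 7.16% of the genes it tested in that direction. Fewer than 4 passed in edgeR with only the groups compared in the fit, or with a block for libraries of the same sex and number.

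After chronic CS none of the 10 genes passed the adjusted limit in edgeR, and neither did any other gene (0% of the genes tested). Of the 10, 8 had a fitted log2 fold change above 0 and Mmp12 and Marco had one below 0, with a median of 1.31 beside 0.01 over all genes tested. An unadjusted p under 0.05 with a higher level in CS was found for 5 of the 10 (Chil3, Lyz2, Lpl, Spp1 and Trem2) and for 5.57% of all genes tested. DESeq2 placed 1 of the 10, Lpl, past its adjusted limit, as it did 2.95% of the genes it tested. No gene of the 10 had all 5 chronic CS libraries above all 3 chronic RA libraries, as 3.92% of all genes tested had. The smallest exact permutation p among the 10 was 0.107 (5 against 3 libraries, two-sided), for Chil3, Lyz2 and Lpl, where the design allows 0.0357. The share of counts on the 10 genes was 0.0151% to 0.0496% in chronic RA and 0.0370% to 0.188% in chronic CS, with M3 and M2 the highest. Those libraries also held the highest sums of the alveolar epithelial list, which ran from 985 to 5115 CPM in chronic CS against 274 to 512 CPM in chronic RA, and its part in the levels of the 10 genes was not tested.

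**Figure D1:**
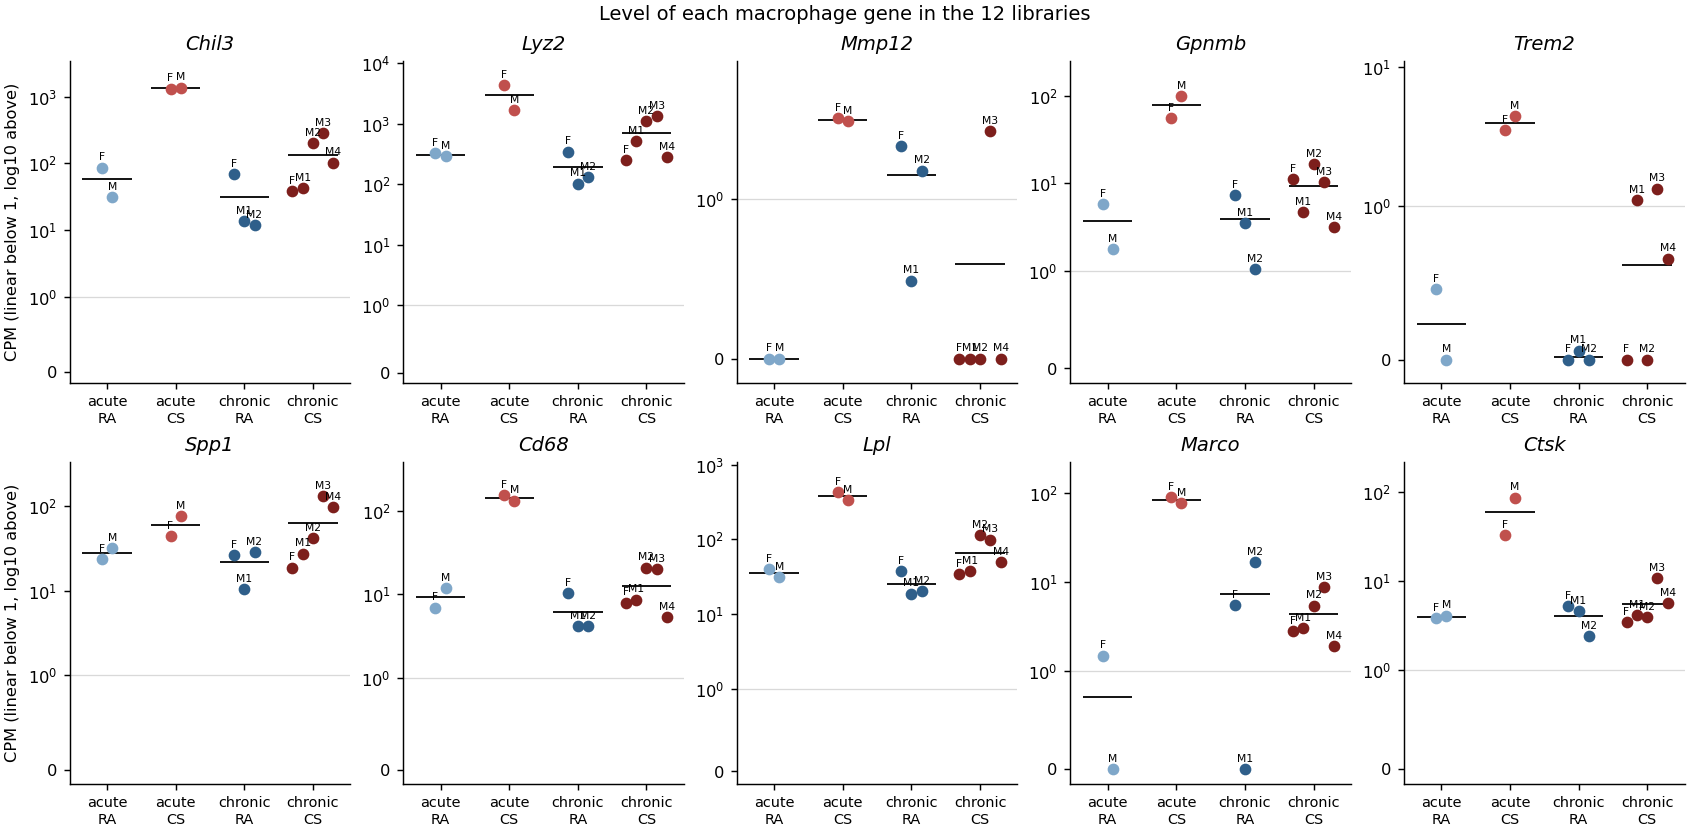
Level of each of the 10 genes in the 12 libraries, in CPM on an axis that is linear below 1 and logarithmic above it. Each point is 1 library named by sex and number, and the black bar is the group mean. The acute CS points lie above the acute RA points in every panel, whereas chronic CS points overlap chronic RA points in every panel.

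Promoter sequences were examined because several of these genes moved together across libraries. The RefSeq table of GRCm38.p6 gave windows from 250 bases before to 50 bases after a start site for 9 of the 10 genes, all but Lpl. They were searched on both strands for motifs of factors that act in macrophages: GAGGAAG (PU.1, a core sequence of this macrophage lineage factor), TGANTCA (AP-1), TTGCNNAA (C/EBP) and CACGTG (E-box). The PU.1 letters were found in 5 of the 9 genes (Mmp12, Trem2, Spp1, Marco and Ctsk) and in 13.63% of 32851 promoters of that length. AP-1 letters were found in 4 of 9 (Mmp12, Gpnmb, Trem2 and Cd68) and in 7.81% of promoters, and C/EBP letters in 5 of 9 (Mmp12, Trem2, Spp1, Cd68 and Ctsk) and in 10.8%. The E-box was in none of the 9 and in 7.15% of promoters. Chil3 and Lyz2 held no match to any of these motifs. Among the genes most correlated with each other, Lpl (no window), Chil3, Cd68, Lyz2, Ctsk and Gpnmb, only Ctsk held the PU.1 letters. Mmp12 and Spp1 have 2 windows each, which gave them more sequence to match. A match describes letters, not a bound site. The 250 bases before the start site are printed 5′ to 3′ on the gene's strand for Cd68 and Ctsk, which rose after acute CS and hold several matches, and for the receptors Trem2 and Marco, with PU.1, AP-1 and C/EBP letters on either strand in capitals. They lie at chr11:69666171-69666420 (minus strand) for Cd68, chr3:95498960-95499209 (plus strand) for Ctsk, chr17:48346151-48346400 (plus strand) for Trem2 and chr1:120505025-120505274 (minus strand) for Marco.
Cd68: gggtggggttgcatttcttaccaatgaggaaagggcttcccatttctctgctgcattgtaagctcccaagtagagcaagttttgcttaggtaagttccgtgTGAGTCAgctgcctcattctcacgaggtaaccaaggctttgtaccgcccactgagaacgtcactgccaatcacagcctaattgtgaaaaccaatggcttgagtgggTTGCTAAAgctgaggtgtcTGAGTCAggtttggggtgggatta
Ctsk: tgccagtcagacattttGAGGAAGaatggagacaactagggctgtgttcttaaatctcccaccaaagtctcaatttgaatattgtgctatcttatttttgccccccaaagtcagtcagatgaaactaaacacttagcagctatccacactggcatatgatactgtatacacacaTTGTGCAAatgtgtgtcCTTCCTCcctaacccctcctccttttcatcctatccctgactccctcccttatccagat
Trem2: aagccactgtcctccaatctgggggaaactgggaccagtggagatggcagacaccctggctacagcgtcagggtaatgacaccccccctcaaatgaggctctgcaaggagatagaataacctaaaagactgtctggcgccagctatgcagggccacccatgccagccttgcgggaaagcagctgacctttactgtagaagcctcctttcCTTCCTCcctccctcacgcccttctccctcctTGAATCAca
Marco: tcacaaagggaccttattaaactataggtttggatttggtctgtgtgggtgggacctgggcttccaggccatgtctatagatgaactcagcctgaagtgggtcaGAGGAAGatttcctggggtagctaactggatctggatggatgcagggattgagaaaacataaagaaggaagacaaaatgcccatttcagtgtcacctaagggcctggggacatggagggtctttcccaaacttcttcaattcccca
In Cd68 the AP-1 letters begin 149 and 24 bases before the start site, with the C/EBP letters between them. In Ctsk the PU.1 letters occur on both strands, and another C/EBP match begins 24 bases after the start site. Trem2 holds its PU.1 letters 41 bases and its AP-1 letters 9 bases before the start site, and a C/EBP match 22 bases after it.

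Among the receptors and surface markers, Cd68 (ENSMUSG00000018774, chromosome 11 from 69664213 to 69666153 of GRCm38) encodes macrosialin, a glycoprotein of late endosomes and lysosomes in macrophages. It was counted at 6.94 CPM in acute RA F and 11.9 CPM in acute RA M, and at 156 CPM in acute CS F and 134 CPM in acute CS M. The acute groups did not overlap, and the 2 smoke libraries lay close together. Cd68 rose by a log2 fold change of 3.94 (standard error 0.73), and its adjusted p in edgeR was 0.0146. In the chronic RA libraries F, M1 and M2 it was at 10.4, 4.12 and 4.11 CPM, and in chronic CS F and M1 to M4 at 7.98, 8.63, 21.03, 20.2 and 5.31 CPM. Only M2 and M3 of the chronic CS libraries lay above every chronic RA library, and the fitted log2 fold change was 1.03 (standard error 0.50, adjusted p = 0.481).

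Marco (ENSMUSG00000026390, chromosome 1 from 120474538 to 120505024), a scavenger receptor that binds inhaled particles and bacteria, showed a wide gap between the acute groups. There were 1.47 CPM in acute RA F and no count in acute RA M, against 89.9 CPM in acute CS F and 77.6 CPM in acute CS M. Acute RA F held 87 counts. The fitted log2 fold change was 6.81 (standard error 2.06), and the adjusted p was 0.112. Without chronic RA M1 it was 0.0415. The chronic RA libraries themselves spread widely, at 5.45 CPM in F, 0 in M1 and 16.6 CPM in M2. The chronic CS libraries fell inside that spread, at 2.78, 2.99, 5.40, 8.81 and 1.90 CPM in F and M1 to M4. The direction after chronic CS depended on the scale: the fitted log2 fold change was -0.74 (standard error 1.16, adjusted p = 0.847), whereas the mean log2 CPM was 1.19 higher in CS, and without chronic RA M2 the fitted value was 0.70.

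Trem2 (ENSMUSG00000023992, chromosome 17 from 48346401 to 48354147), a receptor for lipids and lipoproteins, was scarce in every library. Acute RA F held 27 counts (0.456 CPM) and acute RA M none, while acute CS F held 180 counts (3.53 CPM) and acute CS M 204 counts (4.43 CPM). The acute groups did not overlap, but the fit gave a log2 fold change of 4.10 with a standard error of 2.25 and an adjusted p of 0.436. In chronic RA there were 2 counts in all, from M1. Chronic CS M1, M3 and M4 held 25, 62 and 29 counts (1.10, 1.33 and 0.656 CPM), and chronic CS F and M2 held none. Summed over libraries this was a ratio of 37.1 between chronic CS and chronic RA (95% exact interval 10.04 to 309.9, counting error only), with an unadjusted p of 0.0371 and an adjusted p of 0.436 in edgeR.

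The partners of Trem2 were more abundant. Its signalling adaptor Tyrobp rose after acute CS with a log2 fold change of 3.50 (adjusted p = 0.0288), from 14.1 and 15.3 CPM in acute RA to 227 CPM in acute CS F and 106 CPM in acute CS M. Of 7 genes listed with Trem2, 4 rose, as 2.75% of all genes tested did (Tyrobp, the adaptor Hcst, the phospholipase Plcg2 and the lipoprotein Apoe), and Syk, Inpp5d and Clu did not pass the limit. Among the 7 genes listed with Marco and Cd68, all scavenger receptors, Scarb1 and Cd36 rose (2.75% of all genes tested did) and Stab1, a scavenger receptor that LECs carry, fell (0.723% did). Msr1, Colec12, Olr1 and Scarf1 did not pass it. After chronic CS none of the genes on either list passed the adjusted limit. On the Trem2 list 2 genes had an unadjusted p under 0.05 with a higher level and 1 with a lower level, and on the scavenger receptor list 3 had one with a lower level, beside 5.57% (higher) and 5.35% (lower) of all genes tested.

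Of the lipid and matrix enzymes, Lpl (ENSMUSG00000015568, chromosome 8 from 68880491 to 68907448) encodes lipoprotein lipase, which releases fatty acids from triglycerides. It stood at 40.4 CPM in acute RA F and 31.2 CPM in acute RA M, and at 435 CPM in acute CS F and 339.6 CPM in acute CS M. Both smoke libraries exceeded both controls, and Lpl rose with a log2 fold change of 3.44 (standard error 0.61, adjusted p = 0.0125). Chronic RA F, M1 and M2 had 37.6, 18.8 and 20.1 CPM, and chronic CS F and M1 to M4 had 34.3, 37.2, 114, 99.4 and 49.3 CPM. Here 3 of 5 smoke libraries exceeded the highest control, and the log2 fold change of 1.39 (standard error 0.43) had the smallest adjusted p among the 10 genes after chronic CS, 0.330. Of 7 genes listed with Lpl, 6 were tested and the fatty acid receptor Cd36 rose after acute CS (log2 fold change 2.60, adjusted p = 0.00909), as 2.75% of all genes tested did. Gpihbp1, which holds the enzyme on capillary endothelium, had a log2 fold change of 1.35 (adjusted p = 0.0920), and Lmf1, Angptl4, Vldlr and Sel1l did not pass the limit either. Apoc2 had no count in any library. After chronic CS none of the 6 passed the adjusted limit. The lipase inhibitor Angptl4 had a log2 fold change of -1.16 (adjusted p = 0.260 in edgeR), the 1 gene of the list with an unadjusted p under 0.05 (5.35% of all genes tested had one with a lower level).

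Ctsk (ENSMUSG00000028111, chromosome 3 from 95499256 to 95509362), a cathepsin that cleaves collagen and elastin, had the smallest adjusted p of the 10 between the acute groups. Its levels were 3.78 CPM in acute RA F and 4.07 CPM in acute RA M, and 32.7 CPM in acute CS F and 86.2 CPM in acute CS M. The log2 fold change was 3.92 (standard error 0.66, adjusted p = 0.0106). After chronic exposure the groups overlapped: CS libraries F and M1 to M4 were at 3.41, 4.14, 3.91, 10.7 and 5.61 CPM, and RA libraries F, M1 and M2 at 5.23, 4.55 and 2.38 CPM. The fitted log2 fold change was 0.46 (standard error 0.45, adjusted p = 0.734), and with chronic CS F, M1 and M2 as the only chronic smoke libraries it was -0.069. Of 6 genes listed with Ctsk, the cathepsin Ctss (log2 fold change 4.57, adjusted p = 0.0233) and the lysosomal phosphatase Acp5 (3.25, adjusted p = 0.0322) rose after acute CS, as 2.75% of all genes tested did, whereas the inhibitors Cst3 and Cstb, Ctsl and the transcription factor Nfatc1 did not pass the limit.

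Mmp12 (ENSMUSG00000049723, chromosome 9 from 7344381 to 7369499), macrophage elastase, had no count in either acute RA library. Acute CS F held 186 counts (3.65 CPM) and acute CS M 161 (3.49 CPM). Against a floor of 3 counts over the acute RA group, acute CS was at least 133-fold higher, and the edgeR fit gave an adjusted p of 0.225, or 0.0271 without chronic CS M3. Chronic RA was not at 0, with 2.35, 0.490 and 1.58 CPM in F, M1 and M2, at least 55.0-fold higher than acute RA by the same floor. Chronic CS F, M1, M2 and M4 had no count, and M3 had 139 counts (2.98 CPM). The fitted log2 fold change was -1.26 (standard error 1.73, adjusted p = 0.824). It stayed below 0 in every fit without 1 library, from -8.81 without chronic CS M3 to -0.74 without chronic RA F. None of the 7 genes listed with Mmp12 passed the limit after acute CS, among them the substrate Eln (168.6 and 194 CPM in acute RA, 184 and 203 CPM in acute CS) and the inhibitor Timp1 (2.62 and 3.95 CPM in acute RA, 3.08 and 6.05 CPM in acute CS). An unadjusted p under 0.05 was found for 1 of them with a higher level, beside 10.7% of all genes tested, and for 2 with a lower level, beside 5% of all genes tested.

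Lyz2 and Chil3 are the abundant secreted products. Lyz2 (ENSMUSG00000069516, chromosome 10 from 117277331 to 117282321) encodes a lysozyme that myeloid cells make. Its levels were 323 and 293 CPM in acute RA F and M. It reached 4346 CPM in acute CS F and 1696 CPM in acute CS M, so that the smoke libraries differed from each other by a factor of 2.56, more than for any other of the 10 genes except Ctsk. The log2 fold change was 3.29 (standard error 0.89, adjusted p = 0.0752). In chronic RA F, M1 and M2 Lyz2 was at 347, 103 and 133 CPM, and in chronic CS F and M1 to M4 at 249.6, 522, 1094, 1353 and 280.5 CPM. M1, M2 and M3 lay above every control, F and M4 did not, and the log2 fold change was 1.85 (standard error 0.65, adjusted p = 0.372). Pearson's r of its log2 CPM over all libraries was 0.925 with Ptprc, 0.768 with the neutrophil gene S100a8 and 0.597 with the alveolar epithelial gene Sftpc. For S100a8 and Sftpc these were the highest values among the 10 genes. The part of such cells in the level of Lyz2 was not tested.

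The neighbouring paralog Lyz1, which alveolar type II cells are also known to express, was at 33.5 and 39.3 CPM in acute RA, 153 CPM in acute CS F and 12.5 CPM in acute CS M, with an adjusted p of 0.824. In chronic CS M3 it reached 247 CPM, against 3.05 to 59.7 CPM in the other 4 chronic CS libraries and 2.68 to 13.5 CPM in chronic RA. Of the 5 chronic CS libraries 4 lay above every chronic RA library, and Lyz1 had a log2 fold change of 3.19 (standard error 1.27, unadjusted p = 0.0283, adjusted p = 0.411 in edgeR). Over the 12 libraries its log2 CPM had a Pearson's r of 0.653 with that of Lyz2, given as a description. The main transcripts of the paralogs share 1211 of 1262 aligned bases (95.96%) and 15.4% of the 50-base windows of Lyz2. Reads that lie wholly within such windows may not be assignable to 1 paralog, and both levels are uncertain to that extent.

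Chil3 (ENSMUSG00000040809, chromosome 3 from 106147554 to 106167564) encodes a secreted chitinase-like protein abundant in alveolar macrophages. Acute RA F had 86.6 CPM and acute RA M 31.2 CPM, and acute CS F and M agreed closely at 1314 and 1355 CPM. With a log2 fold change of 4.50 (standard error 1.17) its adjusted p was 0.0628, just above the limit. The chronic RA libraries F, M1 and M2 stood at 68.4, 13.7 and 11.9 CPM. In chronic CS, F and M1 were at 38.2 and 42.8 CPM, within the controls, and M2, M3 and M4 at 202.5, 281 and 102.4 CPM, above them. The log2 fold change was 2.09 (standard error 0.81, adjusted p = 0.401). Its near copy Chil4, with 94.4% identity between main transcripts, reached no more than 0.177 CPM in any library and was not tested. Of the 7 genes listed with Lyz2 and Chil3, 5 were tested and none passed the adjusted limit after acute or chronic CS. An unadjusted p under 0.05 with a higher level was found for 1 of them after acute CS and for 3 after chronic CS, beside 10.7% and 5.57% of all genes tested.

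Gpnmb and Spp1 encode glycoproteins of macrophages that handle lipid or matrix. Gpnmb (ENSMUSG00000029816, chromosome 6 from 49036546 to 49070929) was at 5.71 and 1.76 CPM in acute RA F and M and at 55.6 and 99.1 CPM in acute CS F and M. It rose with a log2 fold change of 4.37 (standard error 1.005, adjusted p = 0.0378), but its adjusted p passed 0.05 when any 1 of 7 libraries was left out. Chronic RA F, M1 and M2 were at 7.24, 3.48 and 1.04 CPM and chronic CS F and M1 to M4 at 11.2, 4.71, 16.5, 10.3 and 3.14 CPM. The chronic groups overlapped, with a log2 fold change of 1.22 (standard error 0.68, adjusted p = 0.530). Of the MiT family factors that are known to drive Gpnmb in macrophages, Mitf, Tfeb, Tfec and Tfe3 did not pass the limit after acute CS, and Tfec was at 0.359 and 0.642 CPM in acute RA against 6.36 and 6.79 CPM in acute CS. The adhesion receptor Cd44, listed with Gpnmb and Spp1, rose (log2 fold change 3.97, adjusted p = 0.0125).

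Spp1 (ENSMUSG00000029304, chromosome 5 from 104435118 to 104441050) encodes osteopontin, a secreted ligand of Cd44 and of integrins. Its acute levels were 23.3 and 31.9 CPM in RA F and M and 43.9 and 75.9 CPM in CS F and M, a log2 fold change of 1.12 (standard error 0.81, adjusted p = 0.599). This was the smallest of the 10 acute log2 fold changes. After chronic exposure it was at 26.3, 10.5 and 28.5 CPM in RA F, M1 and M2, at 18.6, 27.3 and 41.9 CPM in CS F, M1 and M2, and at 130.5 and 97.3 CPM in CS M3 and M4. The 2 libraries of highest depth in the group thus held the highest levels, and the log2 fold change was 1.54 (standard error 0.62, adjusted p = 0.417). With the 3 shallower smoke libraries alone it was 0.45. Its exons share 309 bases (18.8%) with those of Gm42793 on the same strand, which had 91 counts over all libraries against 23327 for Spp1. Of its 7 listed receptors, Cd44 rose and the integrin subunit Itga9, which LECs express strongly, fell after acute CS (log2 fold change -1.58, adjusted p = 0.00824), beside 2.75% of all genes tested that rose and 0.723% that fell.

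**Figure D2:**
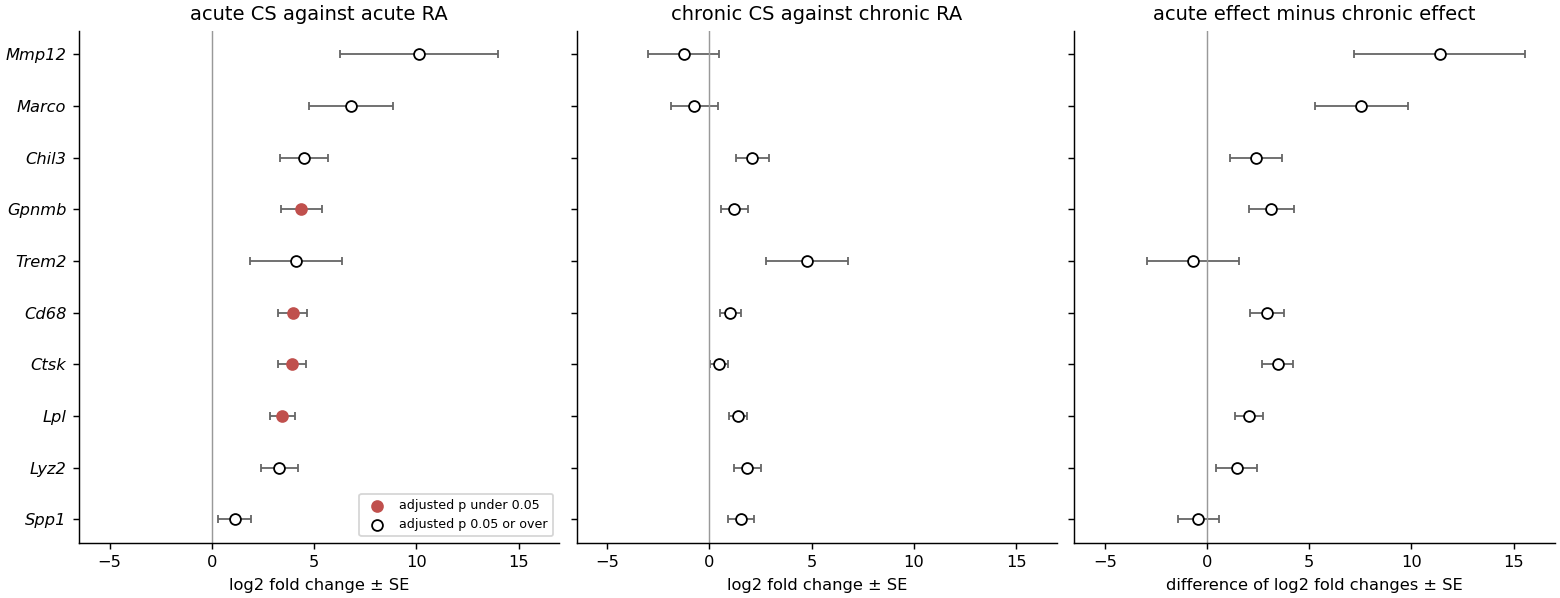
Fitted log2 fold change (point) and its standard error (bar) of the 10 genes after acute CS, after chronic CS, and the difference between these effects, from edgeR. Red points have an adjusted p under 0.05. Cd68, Ctsk, Lpl and Gpnmb are red in the acute panel, and none is red in the chronic or difference panel.

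The levels of the 10 genes differed by orders of magnitude, also after correction for exon length. In FPKM (CPM per kilobase of exon), acute CS held Lyz2 at 2296 ± 1424 (SD, n = 2) and Chil3 at 818 ± 17.7, followed by Cd68 at 115 ± 12.2. Marco, Ctsk, Lpl and Spp1 lay between 36.3 and 43.5 FPKM on average and overlapped their neighbours in that order. Gpnmb came next at 11.9 ± 4.72 FPKM, and Trem2 and Mmp12 were lowest at 0.805 and 0.494 FPKM. In acute RA the order was Lyz2, Chil3, Spp1, Cd68, Lpl, Ctsk, Gpnmb, Marco, Trem2 and Mmp12, and the neighbours Chil3 and Spp1, Gpnmb and Marco, Marco and Trem2, and Trem2 and Mmp12 overlapped. Spp1 came after Lyz2 and Chil3 in acute RA, chronic RA and chronic CS, but after 6 of the genes in acute CS. By mean FPKM, Lyz2 lay above 99.2% of the genes tested in acute RA and 98.5% in chronic RA, so that its transcript was abundant in these sorts without smoke too.

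Each chronic CS library was also set against the mean of the chronic RA libraries, gene by gene on the log2 CPM scale. The median over the 10 genes was highest in M3 (2.22) and M2 (1.80), and lower in M4 (0.64), M1 (0.63) and F (0.50). M3 lay above the control mean for 10 of 10 genes, M1 for 9, M2 and M4 for 8 each and F for 6. For acute CS the same medians were 4.10 (F) and 4.57 (M), with 10 of 10 genes above in each. The smoke libraries of the chronic group thus differed among themselves, and the lowest of them sat near the controls.

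Tested directly, the difference between the acute and the chronic effect passed the adjusted limit for none of the 10 genes in edgeR (0.401% of all genes tested had a higher acute effect by that limit). An unadjusted p under 0.05 was found for 6 of them, Ctsk, Cd68, Marco, Lpl, Gpnmb and Mmp12, all with the higher effect after acute CS, and for 8.17% of all genes tested. The median difference over the 10 genes was 2.66 on the log2 scale, beside 0.04 over all genes. Ctsk had the smallest adjusted p, 0.0821, for a difference of 3.46 (standard error 0.76), and Cd68 followed with 0.163 for a difference of 2.92 (standard error 0.82). Without chronic CS M3 the adjusted p of Ctsk and of Mmp12 was 0.0455. DESeq2 placed Ctsk, Cd68 and Mmp12 past its limit (3.95% of the genes it tested). Spp1 and Trem2 had differences of -0.42 (standard error 0.99) and -0.68 (standard error 2.25).

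Acute and chronic RA libraries differed for none of the 10 genes by edgeR's adjusted limit (0% of all genes tested). By an unadjusted p under 0.05, 1 of the 10 differed, Mmp12 (7.01% of all genes tested), which was also the 1 gene that DESeq2 placed past its limit (1.5% of the genes it tested). The median log2 fold change of chronic RA against acute RA was -0.42. Chronic RA F stood above chronic RA M1 and M2 for Chil3, Lyz2, Cd68, Lpl, Gpnmb, Ctsk and Mmp12, and acute RA F above acute RA M for Chil3, Lyz2, Lpl, Gpnmb, Marco and Trem2. With 1 female library in each control group this was not tested.

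Between the 2 acute CS libraries 6 of the 10 genes were at similar levels and 4 were not. Chil3 was 0.970 times as high in F as in M, and Mmp12, Cd68, Marco, Lpl and Trem2 lay between 0.798 and 1.28 times. Lyz2 was 2.56 times as high in F, while Ctsk, Gpnmb and Spp1 were 2.64, 1.78 and 1.73 times as high in M. The epithelial sum of acute CS M, at 290.0 CPM, was below both acute RA libraries (839 and 1151 CPM), and its neutrophil sum of 28.05 CPM lay between theirs (11.4 and 32.6 CPM), with Ly6g and Camp at 0. The part of these cells in the levels of the 10 genes was not tested.

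Markers of the macrophage lineage moved in the same libraries. Of 15 lineage genes, 14 were higher after acute CS and 6 rose past the limit, as 2.75% of all genes tested did: Ptprc, which encodes CD45, the myeloid factor Spi1, Tyrobp, Laptm5, the phagocytic receptor Mertk and Lgals3. Their median log2 fold change was 3.50, and their summed CPM ran from 283 to 326 in acute RA, 1417 to 2380 in acute CS, 169 to 254 in chronic RA and 176 to 486 in chronic CS. In each acute RA library 1 gene of the list was at 0 (Ms4a7 in M), and in acute CS none was. After chronic CS 13 of 15 were higher, none passed the adjusted limit and 4 had an unadjusted p under 0.05 (5.57% of all genes tested did), with a median of 1.19. Of 16 alveolar macrophage genes, 15 were higher after acute CS. Itgax, Car4, Ear2, Cidec and Fabp5 rose, as 2.75% of all genes tested did. Mrc1, which stood at 632 and 663 CPM in acute RA, fell to 265 and 411 CPM (0.723% of all genes tested fell). The median log2 fold changes of the 16 genes were 4.07 after acute and 1.12 after chronic CS. Siglecf, the surface lectin of alveolar macrophages, was at 0 and 1.48 CPM in acute RA and 35.1 and 32.5 CPM in acute CS (adjusted p = 0.336). Of 13 interstitial macrophage and monocyte genes tested, 13 were higher after acute CS (median 3.05), and Ace and Nr4a1 were among those that rose. Folr2 was too low to test, at 0.0981 CPM or less. What part such cells had in the levels of the 10 genes was not tested.

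Set against Ptprc in the same library, the 10 genes differed in the acute libraries. The ratio of Lyz2 to Ptprc in CPM was 16.3 and 14.9 in acute RA and 15.3 and 11.01 in acute CS, and that of Lpl was 2.04 and 1.59 against 1.53 and 2.20. Cd68 gave 0.351 and 0.608 in acute RA and 0.547 and 0.870 in acute CS. The ratio of Marco was higher in acute CS than in acute RA, at 0.316 and 0.504 against 0.0743 and 0. Those of Chil3 (4.62 and 8.79 against 4.38 and 1.59) and Mmp12 (0.0128 and 0.0227 against 0 and 0) were higher too. That of Spp1 was lower, at 0.154 and 0.492 against 1.18 and 1.63. In the chronic libraries the ranges of Marco and Spp1 overlapped between the groups. Marco gave 0 to 1.34 in RA and 0.0803 to 0.250 in CS, and Spp1 0.691 to 2.30 in RA and 1.13 to 4.11 in CS. Summed over the 10 genes and divided by the sum of the lineage list, the ratio was 1.43 and 1.51 in acute RA, 2.72 and 2.73 in acute CS, 0.939 to 2.01 in chronic RA and 2.09 to 3.95 in chronic CS. These ratios are descriptions of 12 libraries.

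**Figure D3:**
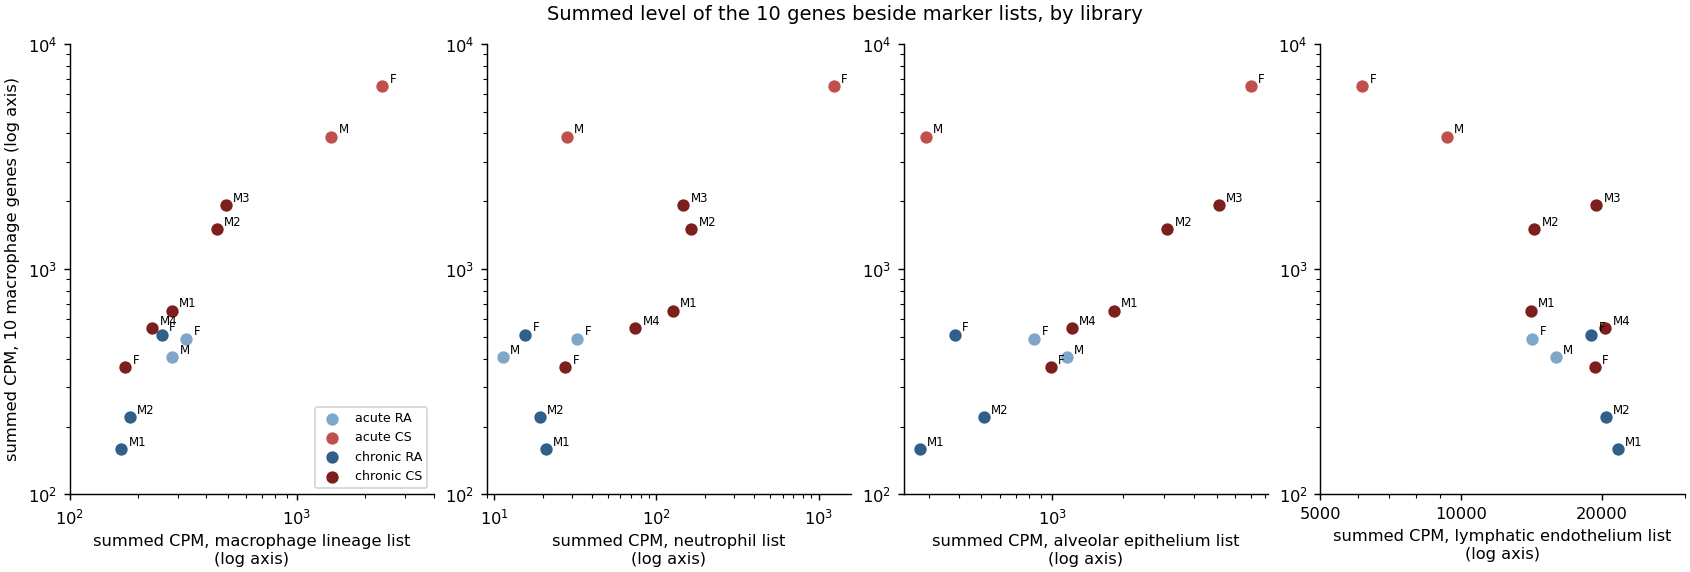
Summed CPM of the 10 genes (vertical, log axis) against the summed CPM of 4 marker lists (horizontal, log axes), with 1 point for each of the 12 libraries named by sex and number. The acute CS libraries F and M sit at 6480 and 3871 CPM on the vertical axis. On the macrophage lineage axis they sit at 2380 and 1417 CPM, and on the neutrophil and alveolar epithelium axes they are far apart.

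Genes of other cells moved as well. After acute CS 9 of 9 tested neutrophil genes were higher (median log2 fold change 4.89), none past the adjusted limit and 6 at an unadjusted p under 0.05 (10.7% of all genes tested), and 12 of 12 alveolar epithelial genes were higher with a median of 1.90, of which Hopx rose. Of the acute libraries only acute CS F had a high sum of either list, at 1248 CPM for neutrophil and 7007 CPM for epithelial genes, and in acute CS M the neutrophil sum lay between those of the acute RA libraries and the epithelial sum below both. Fibroblast genes (9 of 9 higher, median 1.75; Col1a1, Col3a1, Dcn and Lum rose), blood endothelial genes (8 of 8 higher, median 2.31; Cd93, Vwf, Aplnr, Apln and Ednrb rose) and lymphoid genes (8 of 8 higher, median 3.46; Cd3e, Cd3d and Trbc2 rose) were measured too, and 2.75% of all genes tested rose. The 6 erythroid genes had a median of 2.64 and none passed either limit. Their summed CPM was 698 in acute CS M but 10.7 in acute CS F, below both acute RA libraries (37.7 and 69.9). Of the 8 lymphatic markers 7 were lower, with a median of -1.05, and Prox1, Flt4 and Stab2 fell, as 0.723% of all genes tested did. After chronic CS no gene on any of these lists passed the adjusted limit, and the medians were 3.03 for neutrophil, 2.43 for epithelial, 1.59 for fibroblast, 0.62 for blood endothelial, 0.13 for lymphoid, -1.45 for erythroid and -0.09 for lymphatic genes. Their part in the levels of the 10 genes was not tested.

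Wider lysosome and lipid genes were also measured. Of 22 such genes, 15 were higher and 7 lower after acute CS. Their median log2 fold change was 0.41, and 6 rose (2.75% of all genes tested did): Apoe, the lipid droplet coat gene Plin2, Ctss, Cd36, the cholesterol carrier Npc2 and Acp5. Apoe went from 82.0 and 71.1 CPM in acute RA to 322 and 412 CPM in acute CS (log2 fold change 2.26, adjusted p = 0.0106). Ctsb, Ctsd, Lamp1 and Psap, lysosomal genes that LECs express too, were each at or above 748 CPM in acute RA and did not pass the limit. After chronic CS 7 of the 22 were higher and 15 lower, with a median of -0.18 and none past the adjusted limit.

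Across the 12 libraries the levels of the 10 genes were correlated on the log2 CPM scale, in a pattern that includes the difference between groups and is given without a test. Pearson's r over the 45 pairs ran from 0.263 (Mmp12 and Spp1) to 0.980 (Chil3 and Lpl), with a median of 0.657, and 14 pairs were above 0.8. Those 14 pairs lay among Lpl, Chil3, Cd68, Lyz2, Ctsk and Gpnmb, of which Lyz2 and Ctsk (0.76) were the 1 pair below that value. Mmp12 and Spp1 were the least alike to the others. The points share library, depth and cell composition.

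**Figure D4:**
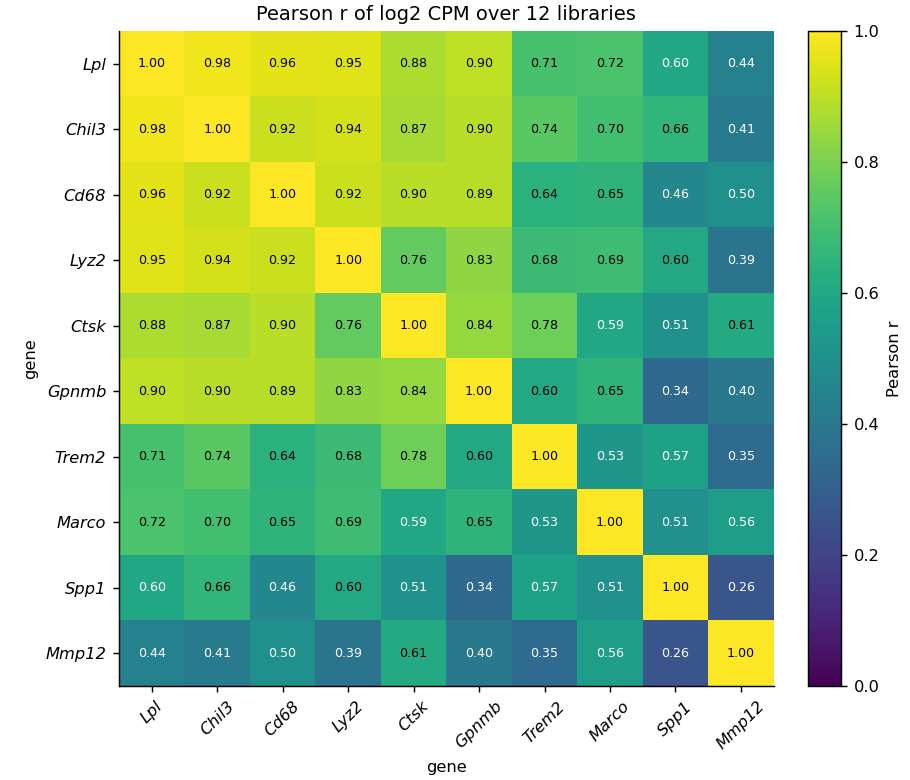
Pearson's r of log2 CPM over the 12 libraries for each pair of the 10 genes, ordered by their mean r. Lpl, Chil3, Cd68, Lyz2, Ctsk and Gpnmb form a block of high r, and the lowest value is 0.26 for Mmp12 and Spp1.

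Outside the 10, the genes whose log2 CPM was most like the mean of their standardized levels over the 12 libraries were Lgals3 (r = 0.978), Laptm5 (0.977), Myof (0.975), Sla (0.970), Itgb2 (0.970), Ctsc (0.968), Ear2 (0.968), Ctss (0.966), Lcp1 (0.964) and Wfdc21 (0.958). Lgals3, which encodes galectin-3, was at 9.25 to 17.9 CPM in acute RA, 281 to 300.1 CPM in acute CS, 6.38 to 15.0 CPM in chronic RA and 11.5 to 72.7 CPM in chronic CS. It was also the gene nearest to Chil3 (r = 0.983) and to Lpl (r = 0.991). The nearest gene was Ctss for Cd68 (0.975), Ncald for Lyz2 (0.975) and Bcl2a1a for Gpnmb (0.948). The transcription factor gene Gata6 was nearest to Marco (0.918), at 18.7 and 21.7 CPM in acute CS against 4.41 and 1.02 CPM in acute RA. For Trem2 it was Mpc1 (0.966), whose level moved within 12.8 to 20.5 CPM over all libraries, for Spp1 it was Gm3375 (0.921) and for Ctsk Has2 (0.975), a gene at or below 0.651 CPM throughout.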

How the data were processed

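RNA was measured in 12 libraries of sorted lung LECs in 4 groups taken from the sample labels. The authors trimmed reads, checked them with FastQC 0.11.9, aligned them with STAR to GRCm38/mm10 and deposited raw read counts per Ensembl gene. The annotation release and the strand setting of the counting are not given in the sources used here, and overlapping or near-identical genes are therefore uncertain. Symbols were taken from GENCODE M21, in which 147 identifiers (at most 0.011% of counts) were not found.

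Counts were tested with edgeR 4.0.16 in R 4.3.3: low counts filtered by group, TMM factors, and a quasi-likelihood fit of the 4 groups over all 12 libraries, with Benjamini-Hochberg adjustment over 21440 genes and a limit of 0.05. Standard errors were derived from the log2 fold change and its F statistic. Log2 CPM values used a prior count of 2. DESeq2 1.42.0, other scalings, filters, covariates and left-out libraries were alternatives. The code was tested on simulated data. Single values were compared by exact permutation with SciPy 1.17.1. Total counts of 18821438 to 56998590 per library put a floor of 3 counts at 0.0507 to 0.158 CPM, and intervals and floors cover counting error only. The labels name separate samples but do not say that those of a group came from separate litters or sorts, so p-values measure only the spread between these samples, which may in part be technical. Libraries of a group differed by more than sampling noise (smallest median chi-square per gene 6.38, against 0.455 from sampling alone), so none was counted as a duplicate.

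The 10 genes and the gene lists were chosen with earlier results of these data known. Named genes were the 10, listed genes past the limit or with a role beside one of the 10, the 10 genes most like the mean of the 10, the nearest gene to each, and the paralogs Lyz1 and Chil4. Some genes stand on more than 1 list, among them Cd36, Cd44, Ctss, Acp5, Apoe, Olr1, Gpihbp1, Tyrobp and Lyz1. A few genes that this rule names are not reported here.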

Additional observations from a re-analysis of the deposited data

Results flagged for a closer look

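Of the 10 genes tested for a library far from the others among the 5 chronic CS libraries, 1 was found. Mmp12 was at 2.98 CPM in chronic CS M3 and at 0 in the other 4 libraries, so that the gap to the nearest library was the whole range of the group (ratio 1, critical value 0.71). With 4 libraries at 0 the ratio is 1 for any count in the other, and the critical value assumes normally distributed values, so that it gives no error rate for a count this sparse.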

How the results depend on the processing

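After acute CS 4 of the 10 genes passed the adjusted limit, against 8 with DESeq2, 2 with only the groups compared in the fit and 0 with the replicate block. With 1 library left out the number ran from 0 (without acute RA F, and without acute RA M) to 5 (without chronic RA F). Over all genes, 745 passed, against 1995 with DESeq2, 139 with only the groups compared, 73 with the block, 175 without acute CS F, 79 without acute RA F and 3 without acute RA M. A lone remaining library is assumed to vary like the other groups. Gpnmb had an adjusted p of 0.0948 without acute CS F or acute CS M, 0.138 without acute RA F, 0.300 without acute RA M, 0.0513 without chronic CS F, 0.0563 without chronic CS M3 and 0.0633 without chronic RA M1. DESeq2 gave 1 gene after chronic CS, 1 between the room air groups and 3 for the difference, where edgeR gave 0. Over all genes DESeq2 gave 573, 273 and 979 against 0, 0 and 97 in edgeR. The chronic count over all genes was 16 with M3 and M4 alone and 10 with no filter, and the room air count 42 with only the groups compared and 6 with no filter. The difference count over all genes was 191 with no filter, 21 with sex as a covariate, 0 with the block, and 0 to 263 with 1 library left out. For the difference, 2 of the 10 genes passed with chronic CS F, M1 and M2 as the only smoke libraries of that time, 1 with no filter, and 0 to 2 with 1 library left out, the 2 being Mmp12 and Ctsk without chronic CS M3. Directions turned for values that passed no limit, and the cause was not tested. After chronic CS, Mmp12 was 0.019 with M3 and M4 alone, Ctsk -0.069 with F, M1 and M2 alone and -0.017 with the block, and Marco 0.10 with the block and -1.32 to 0.70 with 1 library left out. Between the room air groups, Gpnmb was -0.036 and Ctsk -0.055 without TMM. With 1 library left out Gpnmb ran from -0.74 to 1.15, Ctsk from -0.19 to 0.31, Chil3 from -2.21 to 0.0046 and Trem2 from -6.20 to 2.77. For the difference, Trem2 was 0.013 and Spp1 0.63 with chronic CS F, M1 and M2 alone, and 1.69 and 0.60 with the block. With 1 library left out Trem2 ran from -3.56 to 5.44 and Spp1 from -0.87 to 0.024. Libraries with the same sex and number did not deviate together (correlations of 0.069 in acute and -0.042 to 0.034 in chronic libraries), so they share only a label, and the block left 3 residual degrees of freedom. At the depth of these libraries a count of 0 allows a level of up to 0.0507 to 0.158 CPM.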
